A study of Rattus norvegicus with 20 samples.

Results

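The transcripts described here encode the proteins of the cytosolic ribosome and the factors that start, extend and end translation on it. They were every probe on the array whose RefSeq accession maps to a rat gene symbol that begins with Rpl or Rps and a number, or with Rplp, Eif or Eef and a number, together with Gspt1. The rule found 156 of the 41012 probes, which stood for 105 of the 36043 genes tested, a count in which a probe without a symbol stands for a gene. By symbol the 105 were 66 ribosomal proteins (36 of the large subunit, 26 of the small subunit and 4 paralogs), 30 translation factors (24 for initiation, 5 for elongation and the termination factor Gspt1), and 9 others: 6 inhibitors and kinases that act on translation factors, 2 kinases of ribosomal protein S6 and its pathway, and Eif1ad. All 105 passed the filters on dim and irregular probes, and 104 of them were well above background on all 20 arrays; the exception was Eef1a2.

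Female Sprague-Dawley (Jcl:SD) rats gave the mammary adenocarcinomas and the normal glands on the arrays. All animals, those that gave normal tissue included, had received 4 Gy of gamma rays at 0.5 Gy/min over the whole body at 7 weeks of age and were followed for 30 weeks. Obesity-prone (OP) and obesity-resistant (OR) rats ate a diet with 45 kcal% fat and had been separated by their weight at irradiation, whereas lean controls (LC) ate 10 kcal% fat. There were 6 OP, 3 OR and 3 LC cancers, chosen for uniform histology without necrosis or marked infiltration, and 3 OP, 2 OR and 3 LC normal tissues. Whether each sample is from its own animal is not stated in the labels, and the p-values therefore speak of the variation among these samples, part of which may be technical. Each sample had 1 single-colour array, and levels below are log2 signals after background correction and quantile normalisation, so that a difference of 1 is a doubling.

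The ribosome joins a small subunit, which reads the mRNA, to a large subunit, which forms peptide bonds. Initiation factors bring the initiator tRNA (eIF2, recharged by eIF2B), bind the small subunit (eIF3) and unwind the cap-proximal mRNA (eIF4). Elongation factors deliver aminoacyl-tRNA (eEF1A) and move the ribosome on (eEF2). Many ribosomal protein mRNAs, and those of some elongation factors, begin with a cytosine followed by a run of pyrimidines, the 5′ terminal oligopyrimidine (TOP) tract, through which the mTORC1 kinase controls their translation; tumours commonly make ribosomes at a high rate.

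That start was looked for in RefSeq promoters (GRCr8) as C at the annotated first base followed on the same strand by 4 or more letters that are each C or T. Windows of 30 bases before to 15 bases from that first base are shown for ribosomal proteins and factors whose levels the results turn on, to show which of them carry the tract; capitals mark C and the pyrimidines that follow it at the annotated start. The first 5 carry the tract, and the other 6 do not carry it at the annotated base.
Rpl10a: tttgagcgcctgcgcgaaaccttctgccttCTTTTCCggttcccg
Rpl35a: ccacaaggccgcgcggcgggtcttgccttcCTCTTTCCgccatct
Rps15: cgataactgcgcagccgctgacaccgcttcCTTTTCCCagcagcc
Rps26: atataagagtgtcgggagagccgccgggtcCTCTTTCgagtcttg
Rplp0: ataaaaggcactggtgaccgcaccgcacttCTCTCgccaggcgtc
Rpl4: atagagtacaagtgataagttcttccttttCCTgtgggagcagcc
Rpl13a: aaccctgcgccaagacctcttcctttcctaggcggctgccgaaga
Eef1a1: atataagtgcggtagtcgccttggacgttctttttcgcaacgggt
Eef2: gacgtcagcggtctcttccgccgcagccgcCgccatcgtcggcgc
Eif3b: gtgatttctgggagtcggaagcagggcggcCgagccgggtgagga
Gspt1: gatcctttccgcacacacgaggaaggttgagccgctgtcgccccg

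The windows lie at chr20:6390503-6390547 (plus strand) for Rpl10a, chr11:81235007-81235051 (minus) for Rpl35a, chr7:10068101-10068145 (minus) for Rps15, chr7:1643390-1643434 (minus) for Rps26 and chr12:46718376-46718420 (minus) for Rplp0. The others lie at chr8:73566447-73566491 (plus) for Rpl4, chr1:104748899-104748943 (minus) for Rpl13a, chr8:88225055-88225099 (minus) for Eef1a1, chr7:9189224-9189268 (minus) for Eef2, chr12:19334754-19334798 (minus) for Eif3b and chr10:4869519-4869563 (plus) for Gspt1. A promoter was found for 52 of the 66 ribosomal proteins (53 promoters) and 26 of the 30 translation factors (27 promoters). The tract was at the annotated start in 21 of the 53 ribosomal protein promoters (39.6%) and in 0 of the 27 translation factor promoters, against 2.63% of all 33469 promoters in the table. When the run of 5 letters was allowed to begin within 10 bases on either side of the annotated start, 41 of 53 ribosomal protein promoters (77.4%) and 3 of 27 factor promoters (11.1%) held one, against 28.9% of all; in Eef1a1 a run begins just upstream of the annotated base and continues past it. A match describes these letters and is not a measured start site.

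Several properties of the arrays bear on these transcripts. Of the readings of the member probes, 66.3% came from the second, lower-gain scan that is used for bright spots, against 1.99% of the readings of all probes. Between 61.8% and 79.6% of all probes were well above background on cancer arrays and between 87.9% and 97.7% on normal arrays, and with a scaling to the 75th percentile instead of quantile normalisation the median of all genes lay at -1.51 in cancer against normal. The RefSeq table lists 866 copies and pseudogenes named after the ribosomal proteins, for 62 of the 66 genes, and 86 named after the translation factors, and a probe may not tell a gene from such a copy. The normal LC replicate 1 had the lowest level of many members. Slide 4 held 4 OP cancers and no other group, and slide 5 held 2 OR and 2 LC cancers.

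Cancer was compared with normal tissue to see how the translation machinery differs in the tumours. Most translation factors were higher in cancers, whereas ribosomal proteins rose and fell at shares near those of all genes. Of 30 translation factors, 23 rose (76.7%) and 1 fell, with a median log2 difference of 0.51, beside 29% of all genes tested that rose and 33.5% that fell (limma, adjusted p under 0.05; median of all genes -0.03). Of 66 ribosomal proteins, 15 rose (22.7%), 22 fell (33.3%) and 29 did not pass, with a median of -0.03 and a range from -1.12 to 2.13. The ribosomal protein counts depended on the scaling: with the 75th percentile, 3 rose and 26 fell with a median of -0.35, while 14.3% of all genes rose, 66.5% fell and the median of the ribosomal proteins lay 1.16 above that of all genes. In the values the authors deposited, 3 rose and 25 fell (26.7% and 41.1% of 18351 genes), with a median of -0.33, which is 0.14 below the median of all genes in the authors' deposited table. The translation factor counts were 21 higher and 1 lower, and 21 higher and 0 lower of 29, in the same scalings. All 8 normal tissues were scanned on day 2 (slides 1 to 3) and 8 of the 12 cancers on day 1 (slides 4 and 5), so tissue was partly tied to slide and scan day. With the slide as a block 13 ribosomal proteins rose and 12 fell, while 20 translation factors rose and 0 fell. The share of all genes that passed with that block is not given here, so these counts cannot be read against it. In bulk tissue, fewer cells of a type and less RNA per cell cannot be told apart.

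**Figure D1:**
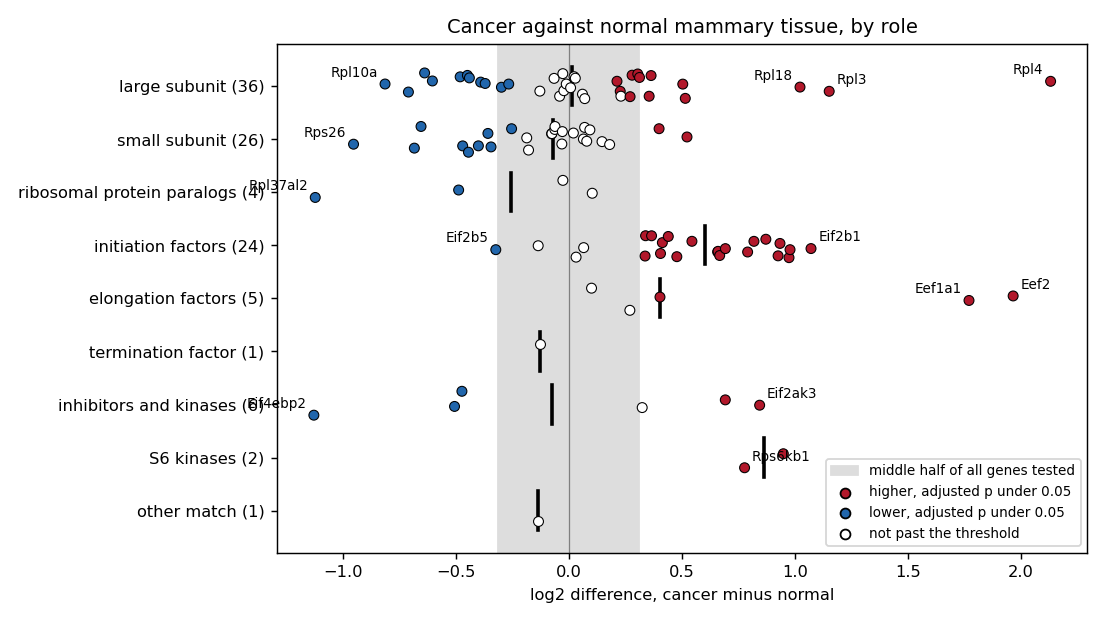
Log2 difference between the mean of the 3 cancer groups and the mean of the 3 normal groups (horizontal axis) for each of the 105 members, in rows by role with the number of genes in parentheses. Filled points passed an adjusted p of 0.05 in limma (red higher, blue lower), black bars are row medians, and the grey band runs from the lower to the upper quartile of all genes tested; 20 of 24 initiation factors lie on the right as red points, while the large subunit has 13 red and 11 blue points.

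The largest rise among the ribosomal proteins was that of Rpl4, a large-subunit protein that lines the exit tunnel. Its level was 13.76 at the lowest, 14.26 at the median and 14.67 at the highest of the 12 cancers, and 10.77, 12.24 and 13.21 in the 8 normal tissues. The groups did not overlap, and the difference was 2.13 (SE 0.243, 4.38-fold, adjusted p 1.99e-06). Rpl3, another core protein of the large subunit near the peptidyl transferase centre, ran from 13.87 over 14.25 to 14.59 in cancers and from 11.91 over 13.16 to 13.78 in normal tissue (difference 1.15, SE 0.207). Rpl18 ran from 16.35 over 16.62 to 16.88 against 15.04 over 15.65 to 15.86 (1.02, SE 0.106). Every cancer lay above every normal tissue for these 3 genes and for Rpl6 and Rpl28, which rose by 0.51 (SE 0.089) and 0.50 (SE 0.084). Those 5 were the ribosomal proteins without overlap, none of the 66 lay wholly below, and over all genes 8.63% lay wholly above and 11.6% wholly below. Rpl6 and Rpl28 did not pass with 75th percentile scaling, in which they differed by 0.09 and 0.08.

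The falls were spread over both subunits and were smaller. Rpl10a, a protein of the L1 stalk, had levels of 14.66, 15.14 and 15.54 (lowest, median and highest) in cancers and 15.24, 15.85 and 16.15 in normal tissue, a difference of -0.81 (SE 0.111, adjusted p 1.09e-05). Rpl13a, which also takes part in the control of inflammatory mRNAs outside the ribosome, had 16.77, 17.01 and 17.61 against 17.29, 17.69 and 17.82 (-0.64, SE 0.077). For both genes the cancers that reached into the normal range were all from OP rats. Rpl35a fell by 0.71 (SE 0.156), and in the small subunit Rps15 fell by 0.69 (SE 0.096) and Rps25, which some viral and cellular internal initiation needs, fell by 0.66 (SE 0.109). The paralog Rpl37al2 fell by 1.12 (SE 0.202). Rps26, which lies near the mRNA exit channel, ran from 10.31 over 12.03 to 13.15 in cancers against 12.15 over 12.75 to 13.34. Its difference of -0.95 (SE 0.333, adjusted p 0.0199) did not pass with the slide (-0.43) or the scan day (-0.49) as a block, with 75th percentile scaling (-0.75) or without normal OR replicate 1 (-0.89), and Rpl35a did not pass with the slide as a block (-0.52).

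Of the 36 large-subunit proteins 13 rose and 11 fell, and of the 26 small-subunit proteins 2 rose and 9 fell. The medians were 0.01 and -0.07. Rplp0, the stalk base often used as a reference transcript, ranged from 12.03 over 12.40 to 12.66 in cancers and from 11.76 over 12.33 to 12.82 in normal tissue, a difference of 0.06 (95% interval -0.23 to 0.35). Rps6, the substrate of the S6 kinases, differed by 0.15 (SE 0.095, adjusted p 0.194) and by -0.36 with 75th percentile scaling. Among the 21 ribosomal proteins with the TOP tract shown above, 3 rose and 9 fell with a median of -0.06, and among the 31 whose promoter had no tract at the annotated base 6 rose and 10 fell with a median of -0.03.

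The largest rises after Rpl4 were those of elongation factors. Eef2, which encodes the translocase eEF2, ran from 15.59 over 16.98 to 17.19 in cancers and from 14.27 over 14.97 to 15.14 in normal tissue, a difference of 1.96 (SE 0.183, 3.90-fold, adjusted p 2.46e-07). Eef1a1, the common form of eEF1A, ran from 15.68 over 16.31 to 16.70 against 13.43 over 14.58 to 15.09 (1.77, SE 0.160, 3.41-fold, adjusted p 1.81e-07). Neither gene overlapped between the tissues. Eef1g, a subunit of the exchange factor eEF1B, rose by 0.40 (SE 0.053), and Eef1d, another subunit, differed by 0.10 (SE 0.079). Eef1a2, the eEF1A form of muscle and neurons, differed by 0.27 (SE 0.268), and its highest levels were 9.19 in OP cancer 6 and 8.35 in OP cancer 2, against 6.55 to 7.09 in the other cancers. The same arrays had the highest summed level of 4 skeletal muscle markers among the cancers (Acta1, Ckm, Myh4 and Tnnt3), as deviations of 2.94 and 1.26 from the mean of the groups against -1.04 to -0.37 elsewhere, and the normal tissue with the highest Eef1a2, OR replicate 2 at 7.33, had the highest deviation of the normals, 2.17. The part of muscle RNA in the level of Eef1a2 was not tested.

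Initiation factors moved mostly one way. All 8 measured eIF3 subunits rose, with a median of 0.68, and 7 or 8 of them passed in each of the other scalings. Eif3b, a scaffold subunit, had levels of 11.34, 11.93 and 12.35 in cancers against 10.47, 11.04 and 11.21 (0.98, SE 0.133, adjusted p 1.08e-05). Eif3e rose by 0.97 (SE 0.260) and Eif3a, the largest subunit, by 0.41 (SE 0.154, adjusted p 0.028). The call of Eif3a was lost without any of 4 normal tissues (OP replicate 1, OR replicate 1, OR replicate 2 and LC replicate 2), with differences of 0.32 to 0.41. Of the 5 subunits of eIF2B, the exchange factor that recharges eIF2, 4 rose, led by Eif2b1 at 1.07 (SE 0.171, adjusted p 5.24e-05), and Eif2b5, the catalytic subunit, fell by 0.32 (SE 0.094). Eif2b5 differed by -0.09 to 0.02 in the other 3 scalings, in none of which it passed.

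Both measured subunits of eIF2 rose, Eif2s1 by 0.66 (SE 0.210) and Eif2s2 by 0.66 (SE 0.163), although another probe of Eif2s2 differed by -0.30. In the cap-binding group, the helicase Eif4a1 rose by 0.54 (SE 0.116) and Eif4h by 0.79 (SE 0.086). Eif4e, the cap-binding protein, ran from 10.37 over 10.83 to 11.07 in cancers and reached 11.25 with a median of 10.98 in normal tissue, a difference of -0.14 (SE 0.094, adjusted p 0.217), and its other probe differed by 0.89. Eif6, which keeps the subunits apart, differed by 0.03 (SE 0.066) and Gspt1, the termination GTPase eRF3a, by -0.13 (SE 0.089). The 2 probes of Gspt1 differed in sign (-0.13 and 0.19).

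Of the 6 inhibitors and kinases that act on translation factors 2 rose and 3 fell, and both kinases of the S6 pathway rose. Eif4ebp2, a repressor that binds eIF4E, fell by 1.13 (SE 0.209, adjusted p 1.97e-04), from 11.38, 12.81 and 13.05 in normal tissue to 10.95, 11.39 and 12.67 in cancers. Its relative Eif4ebp1 fell by 0.51 (SE 0.149), a call lost with the slide (-0.48) or the scan day (-0.44) as a block. Rps6kb1, which encodes S6 kinase 1, rose by 0.78 (SE 0.102, adjusted p 8.05e-06), and Rps6ka1 (RSK1) by 0.95 (SE 0.183). Of the kinases that phosphorylate eIF2α, Eif2ak2 (PKR) rose by 0.69 (SE 0.180) and Eif2ak1 (HRI) fell by 0.47 (SE 0.122). Eif2ak3 (PERK) rose by 0.84 (SE 0.075) with no overlap, but by 0.14, 0.01 and 0.16 in the other 3 scalings, none of which passed. Eef2k, which inhibits eEF2, differed by 0.32 (SE 0.142, adjusted p 0.0584), a difference that passed without OP cancer 2, OP cancer 6, OR cancer 3 or normal LC replicate 1 (0.25 to 0.39 over all single arrays left out), and its other probe differed by -0.19.

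Other genes of protein synthesis were taken from lists by function. Of 13 aminoacyl-tRNA synthetases 12 rose (median 1.01; Tars1 by 1.45, Farsa by 1.42 and Lars1 by 1.01), and of 22 genes of ribosome biogenesis and RNA polymerase I 19 rose and 0 fell (median 0.82; Ebna1bp2 by 1.11, Nop16 by 0.92 and Polr1b by 1.78). Of 24 mitochondrial ribosomal proteins 6 rose (25%; Mrps22 by 1.36, Mrpl38 by 1.26) and 8 fell (33.3%; Mrps15, difference -0.39), near the 29% and 33.5% of all genes. Of 9 genes of the mTORC1 axis 4 rose, Ddit4 (1.66), Mtor itself (0.96), Tsc2 (0.81) and Rheb (0.59), and 2 fell, Tsc1 (-0.94) and Lamtor1 (-0.49). Of 7 genes of the integrated stress response 5 fell, among them Asns (-0.70), Atf4 (-0.37) and Trib3 (-1.18), and 1 rose (Ppp1r15a, 0.42). Of 10 other translation genes 2 rose (Pabpc1 by 0.58 and Paip2 by 0.61) and 2 fell (Fau, -0.28, and Mcts1, -0.46). Beside these differences all 7 adipocyte markers fell (median -4.98), all 7 luminal epithelial markers rose (median 1.68) and all 5 proliferation genes rose (median 2.14). The mean level of the adipocyte markers was 7.18 to 7.55 on cancer arrays and 12.5 to 13.5 on normal arrays. The part of cell composition in the differences of the members was not tested.

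The comparison could be made within each rat group and slide. In OP rats 11 ribosomal proteins rose and 5 fell (21.2% and 23.4% of all genes), in OR rats 5 rose and 13 fell (13.9% and 14.5%), and in LC rats 7 rose and 13 fell (19.9% and 23.7%), with medians of 0.09, -0.20 and -0.07. For the translation factors, 13 rose and 0 fell in OP, 15 and 0 in OR, and 13 and 2 in LC. Within slides 1, 2 and 3 Eef1a1 was higher in cancer by 2.06, 1.14 and 1.66, and the median of the ribosomal proteins was 0.19, 0.23 and -0.16. Slide 1 held normal LC replicate 1.

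**Figure D2:**
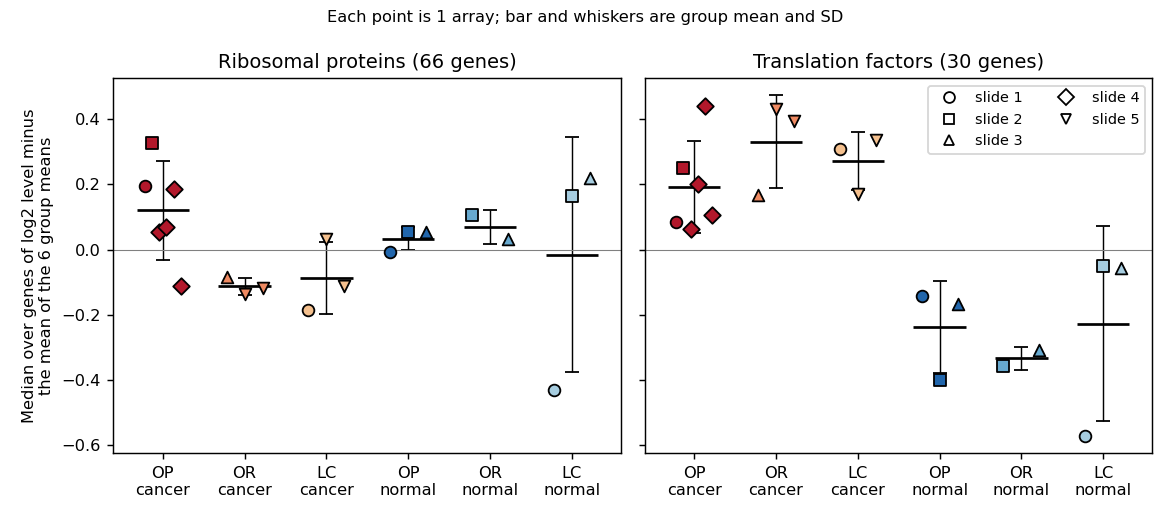
Median over the 66 ribosomal proteins (left) and the 30 translation factors (right) of each gene's log2 level minus the mean of its 6 group means, 1 point per array, with the mean and SD of each group as bar and whiskers and the slide as symbol. Among cancers the ribosomal protein points of OP rats reach from -0.11 to 0.33 and those of the other rats from -0.18 to 0.03; for the translation factors every cancer lies above every normal tissue.

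Obesity-prone cancers were compared with the other cancers (the OP mean against the average of the means of OR and LC). The OP and OR rats shared a diet, and the comparison between their cancers is given further below. The LC rats ate a diet with less fat, so OP against the other cancers differed partly in diet as well as in obesity proneness. No gene of 36043 passed an adjusted p of 0.05 in limma (0%), and so no member did; at an unadjusted p under 0.05, 28 of 66 ribosomal proteins were higher (42.4%) and 2 were lower, beside 5.95% and 5.42% of all genes. The ribosomal proteins had a median difference of 0.26 and 55 of 66 lay above 0, against a median of -0.01 and 47.9% above 0 for all genes. The translation factors had a median of -0.12 with 6 of 30 above 0, and of the 30, 2 were higher and 3 lower at an unadjusted p. In the other 3 scalings 38 to 42 ribosomal proteins were higher and 0 lower at an unadjusted p, with medians of 0.40 to 0.47, while 4.25%, 3.06% and 8.06% of all genes were higher.

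**Figure D3:**
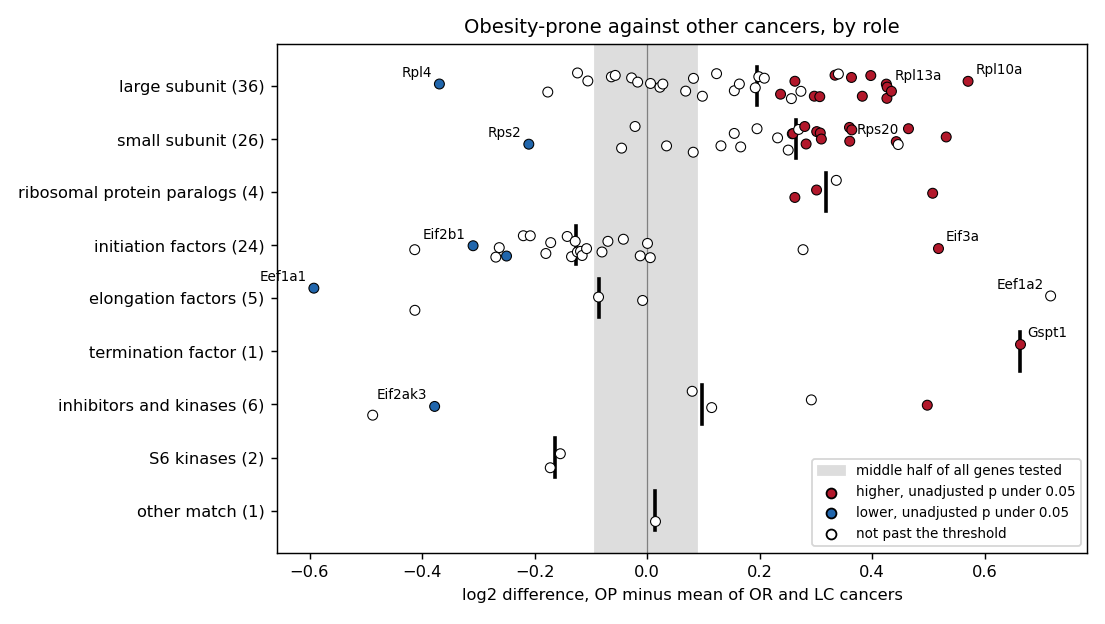
Log2 difference between OP cancers and the mean of OR and LC cancers (horizontal axis) for the 105 members, in rows by role with the number of genes in parentheses. Filled points have an unadjusted p under 0.05 (red higher, blue lower) and none passed after adjustment; black bars are row medians and the grey band runs from the lower to the upper quartile of all genes tested, with the medians of the large subunit (0.20) and small subunit (0.26) to its right.

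By array, the median deviation of the ribosomal proteins was 0.20, 0.33, 0.05, 0.07, 0.18 and -0.11 in OP cancers 1 to 6. It was -0.08, -0.14 and -0.12 in the OR cancers and -0.18, 0.03 and -0.11 in the LC cancers. The OP cancers 1 to 5 lay above all OR and LC cancers, and OP cancer 6 lay among them. On slide 1, which held OP cancer 1 and LC cancer 1, 59 of 66 ribosomal proteins (89.4%) were higher in the OP cancer, with a median of 0.37 against 0.02 for all genes (53.4% higher), and 12 of 30 translation factors were higher (median -0.17). Among the 8 cancers scanned on day 1, the OP cancers were those of slide 4 and the others those of slide 5. Slide and group cannot be told apart there. The median of the ribosomal proteins was 0.13 on that day, and 11 of them were higher at an unadjusted p. The share of all genes past that threshold on day 1 is not given here, so the count cannot be read against it. Among the 4 cancers of day 2 the median of the ribosomal proteins was 0.47.

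Leaving out OP cancer 6 changed the calls. Without it 454 of 36043 genes passed as higher (1.26%) and 62 as lower (0.172%), and the members that passed were 13 ribosomal proteins, all higher, with Gspt1 (0.72) and Eef1a1 (-0.60). Among the 13 were Rpl10a, Rpl11, Rpl13a, Rpl19, Rpl32, Rpl35a, Rpl39, Rpl41, Rps10, Rps12, Rps24 and Rps25, and the 13 had differences of 0.31 to 0.64 and limma's adjusted p between 0.0138 and 0.0445. Leaving out any other cancer left 0 members called. OP cancer 6 also had the highest skeletal muscle marker level of the cancers (a deviation of 2.94, against -0.97 to -0.37 in the OR and LC cancers) and the lowest luminal marker deviation (0.30 against 0.60 to 1.29 in OR and LC cancers). Its macrophage and T and NK cell marker deviations (1.82 and 1.59) and its fibroblast deviation (0.86) were likewise the highest of the cancers. OP cancer 2, with the next highest skeletal muscle marker deviation, had the highest ribosomal protein median of the cancers. Over all OP cancers the luminal markers also lay below those of the other cancers (median difference -0.29, 1 of 7 above 0). The part of these cells in the difference was not tested.

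The member with the smallest p was Gspt1, with levels of 11.92, 12.18 and 12.51 (lowest, median and highest) in OP cancers, 11.50, 11.70 and 11.84 in the 3 OR cancers and 11.31, 11.45 and 11.46 in the 3 LC cancers. Every OP cancer lay above every other cancer, as for 0.422% of all genes. The difference was 0.66 (SE 0.111, 95% interval 0.42 to 0.91, p adjusted over all genes 0.126 in limma). Its other probe differed by -0.11 (unadjusted p 0.449 in limma), so the 2 probes of Gspt1 did not give the same result.

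Eef1a1 had the most negative difference of the members. Its OP cancers had levels of 15.81, 15.68, 15.71, 15.95, 16.29 and 15.91, the OR cancers 16.45, 16.52 and 16.33 and the LC cancers 16.50, 16.70 and 16.40. All OP cancers lay below all others, as for 0.413% of all genes, and all cancers lay above all normal tissues. The difference was -0.59 (SE 0.104, interval -0.82 to -0.36, limma adjusted p 0.126), it was -0.69 on slide 1, and it was smaller in the other scalings (-0.34, -0.29 and -0.35).

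Among the ribosomal proteins, Rpl10a had levels of 15.45, 15.54, 15.38, 15.49, 15.54 and 15.04 in OP cancers, 14.66, 14.77 and 15.23 in OR cancers and 14.79, 14.75 and 14.82 in LC cancers. Only OP cancer 6 and OR cancer 3 overlapped, and the difference was 0.57 (SE 0.111, limma adjusted p 0.139). Rpl13a had 17.27, 17.61, 17.23, 17.29, 17.18 and 17.09 in OP cancers against 16.77, 16.93 and 16.85 in OR and 16.84, 16.80 and 16.90 in LC cancers. Its groups did not overlap (0.43, SE 0.082, limma adjusted p 0.129). Rps20, of the small subunit, also had no overlap, with a difference of 0.36 (SE 0.077). The medians of normal tissue, 15.85 for Rpl10a and 17.69 for Rpl13a, were above those of the OP cancers, 15.47 and 17.25.

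**Figure D4:**
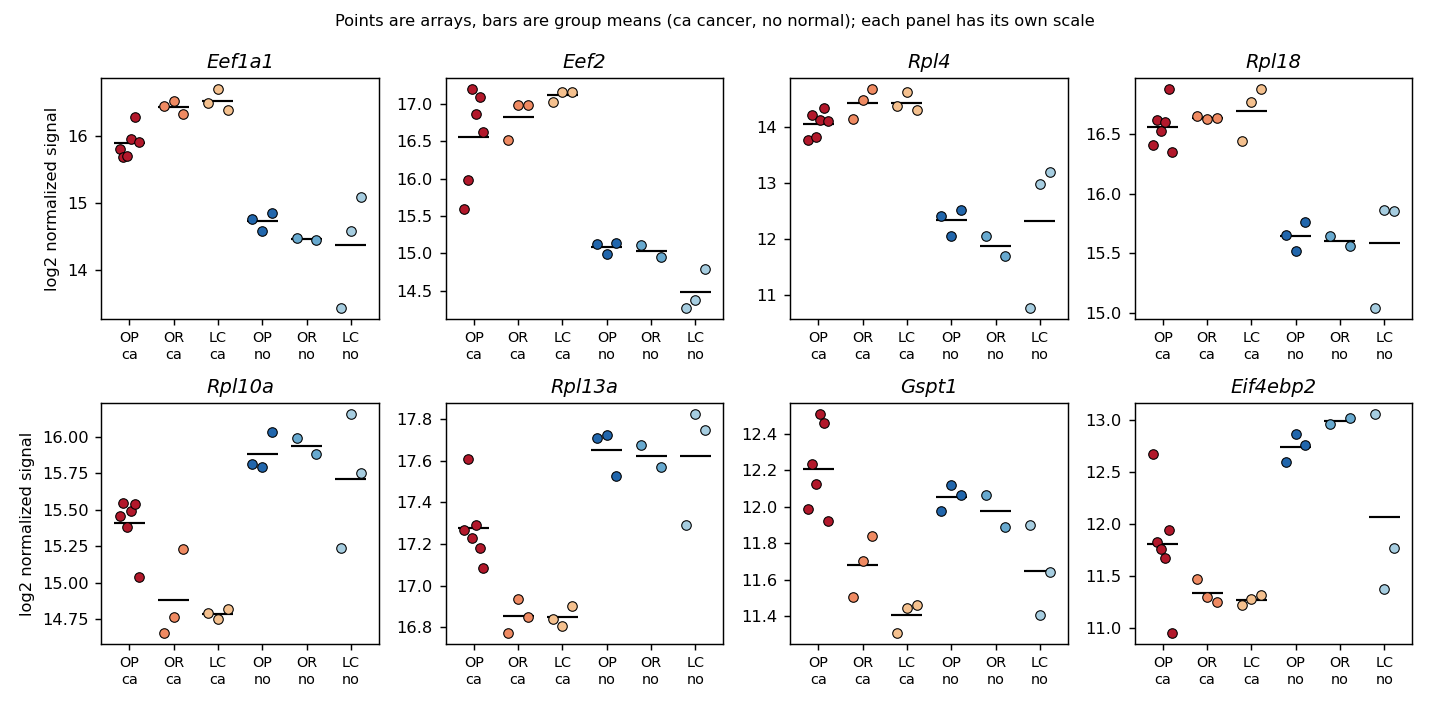
Log2 normalised signal (vertical axis, a scale of its own in each panel) of 8 members on each of the 20 arrays, with group means as bars, for cancers (ca) and normal tissue (no) of OP, OR and LC rats. Eef1a1, Eef2, Rpl4 and Rpl18 are higher in every cancer than in every normal tissue, and Gspt1 and Rpl13a are higher in every OP cancer than in every other cancer.

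Fewer members lay on the other side. Eif2ak3 differed by -0.38 (SE 0.085), from 7.47 over 7.61 to 7.90 in OP cancers against 7.85 over 8.03 to 8.18 in the others. Eif2b1 differed by -0.31 (interval -0.53 to -0.09), Rpl4 by -0.37 (SE 0.124) and Rps2, a small-subunit protein at the entry of the mRNA channel, by -0.21 (SE 0.082), with adjusted p of 0.17 to 0.381 for these 4 in limma. Rps2 differed by 0.02 to 0.10 in the other scalings, and its other 3 probes by -0.10, -0.25 and 0.02. Eef2 was lowest in OP cancers 1 and 2 (15.59 and 15.98) and lay between 16.51 and 17.19 in the other 10 cancers (difference -0.41, SE 0.259, interval -0.98 to 0.16).

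For the other named members no difference passed after adjustment, and most intervals included 0. Eif3a differed by 0.52 (interval 0.14 to 0.89) with its highest levels, 13.73 and 13.74, in OP cancers 1 and 2. Eef1a2 differed by 0.72 (-0.13 to 1.57), with the 2 high OP arrays described above. Eef2k differed by 0.29 (-0.13 to 0.71), Eif4ebp1 by 0.08 (-0.32 to 0.48), Rps6kb1 by -0.15 (-0.45 to 0.14), Eif6 by -0.12 (-0.30 to 0.07) and Eif2s1 by -0.11 (-0.41 to 0.19). Rpl3 differed by -0.12 (-0.43 to 0.19), Rplp0 by -0.06 (-0.30 to 0.19), Rps6 by 0.08 (-0.08 to 0.24), Eif4e by -0.01 (-0.29 to 0.26) and Eif4a1 by 0.00 (-0.31 to 0.31), while the other 4 probes of Eif4a1 differed by -0.30 to -0.12. Ribosomal proteins with the TOP tract had a median difference of 0.24 (17 of 21 above 0) and those without it at the annotated base 0.21 (25 of 31). Mitochondrial ribosomal proteins had a median of 0.07, with 6 of 24 higher and 1 lower at an unadjusted p. Aminoacyl-tRNA synthetases had a median of -0.06, with 0 of 13 higher and 1 lower. Of all genes 5.95% were higher and 5.42% lower, so 0 of 13 is near that share.

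The other comparisons shared these samples and called 0 members and 0 of all genes (0%) in limma. In OP against OR cancers 26 of 66 ribosomal proteins were higher and 1 lower at an unadjusted p (4.9% and 5.99% of all genes) with a median of 0.27, and the smallest p were those of Eef1a1 (-0.54), Rpl13a (0.43) and Eif2ak3 (-0.42), with an adjusted p of 0.363 each in limma. In OP against LC cancers 20 were higher and 2 lower (3.99% and 3.22% of all genes) with a median of 0.21, led by Gspt1 (0.80), Eef1a1 (-0.64) and Rpl10a (0.62). Without OP cancer 6, 5 members passed, but the share of all genes that passed in that refit is not given here. OR and LC cancers differed in 0 ribosomal proteins at an unadjusted p (4.19% of all genes in either direction), with a median of -0.01; Eif1ad (0.32), Gspt1 (0.28) and Rpl10 (-0.20) had the smallest p. In normal tissue OP differed from OR and LC in 0 ribosomal proteins at an unadjusted p (2.18% of all genes), with a median of 0.01, and Eif3a (0.65), Eef2 (0.33) and Eef2k (0.38) had the smallest p. The median 95% interval of a member in normal tissue reached 0.424 to either side, wider than the 0.246 in OP against other cancers. The test of whether the OP difference was larger in cancer than in normal tissue passed for 0 members, and 13 of 66 ribosomal proteins had a more positive difference in cancer and 1 a more negative one at an unadjusted p (2.44% and 1.86% of all genes; median 0.27). The smallest p there were those of Eef1a1 (-0.91), Eif2ak3 (-0.41) and Eef1g (-0.29).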

How the data were processed

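The 20 arrays were 1-colour Agilent Whole Rat Genome arrays hybridised with Cy3-labelled cRNA. The scanner files deposited by the authors hold median spot and background brightness in units of intensity, and 0 or 1 quality flags, per the file headers; Feature Extraction is given as version 9.5.1.1 in those headers and as 10.7.3.1 in the submitters' processing notes. The authors' deposited value table is on a log2 scale; compared with the scanner files, its values are processed signals in log2, scaled to each array's 75th percentile and then centred per probe (20793 of 20824 entries matched, lowest correlation 0.9998). The design text names RMA, whose quantile step that table does not show.

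In R 4.3.3 with limma 3.58.1 the intensities were background-corrected (normexp, offset 50), quantile-normalised and taken to log2. Of 41012 probes, 115 flagged as outliers and 825 not well above background on 0.5 of any group's arrays were removed, so that 40072 remained, none of them saturated. The brightest probe stood for a gene. Of the members, 70 had 1 probe and 35 had several. Among those 35, the probes differed in sign for 7 in cancer against normal and for 8 in OP against other cancers. Of 13948 RefSeq accessions on the array 8991 matched a symbol. Rpl3l and Eif4g1 were not analysed here. Some named members are not reported here. Groups were fitted with all 20 arrays (14 residual degrees of freedom) for cancer against normal and the interaction, the 12 cancers (9) or the 8 normal tissues (5), with p adjusted by Benjamini and Hochberg over 36043 genes. The median 95% interval of a member reached 0.235 to either side in cancer against normal and 0.246 in OP against other cancers. In simulated data 100 of 36043 genes were changed. The fit of cancer against normal recovered 58% of changes of 0.5 and 93% of changes of 1 (log2), and that of OP against other cancers 45% and 80%. Each run also called 7 unchanged genes. In the measured cancer against normal 10439 genes rose and 12068 fell, so the simulated rates do not describe that comparison. Figures were drawn in Python 3.11.15 with matplotlib 3.10.9.

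Members and lists were chosen with earlier results of these data known. Named members were those with an adjusted p under 0.05 and the 8 largest rises and falls, or, with none past the threshold, the 5 of smallest p per direction (the 3 smallest in the other comparisons), and 18 fixed genes, 16 of them measured. The other members named were chosen after their values were seen. Lists are described by counts and medians and were not tested. Alternatives covered scaling, background, filters, probe choice, slide, scan day, replicate block and leaving out each array.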

Additional observations from a re-analysis of the deposited data

Results flagged for a closer look

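Among the 6 OP cancers, 3 of the 32 named members had 1 sample far from the others by Dixon's criterion at 95%; chance marks about 1 in 20 groups. Rpl10a was 15.04 in OP cancer 6, against 15.38 to 15.54 in the other 5. Rps6 was 18.11 in OP cancer 6, against 18.36 to 18.46, at the top of the scale where quantile normalisation gives several arrays the same value. Eif6 was 12.49 in OP cancer 2, against 12.80 to 12.95. OP cancers 6 and 2 were also those with the highest skeletal muscle marker deviations among cancers (2.94 and 1.26), whose part in these values was not tested.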

How the results depend on the processing

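The other scalings were 75th percentile scaling (P75), normexp with P75 (NP75) and the authors' deposited table (AT). For the values given here the cause was not tested. Counts of calls below with a block, a single scan day or an array left out have no share of all genes beside them. In cancer against normal, P75, NP75 and AT gave a ribosomal protein median of -0.35, -0.29 and -0.33 and 3 higher in each, and AT gave 0 translation factors lower. They gave 0.088, 0.14 and 0.10 for Eif4e, -0.36, -0.31 and -0.34 for Rps6, -1.59 and -0.71 (P75, NP75) for Eef1a2 and 0.14 (NP75) for Gspt1. In OP against other cancers they gave a ribosomal protein median of 0.41, 0.47 and 0.40, 0 lower in each, Rps2 at 0.027, 0.10 and 0.015, Rplp0 at 0.017, 0.040 and 0.0055, Eif4e at 0.069, 0.060 and 0.057 and, for NP75, Rpl3 at 0.077; the interaction of Eef1g became 0.068, 0.060 and 0.050. The mean of all probes gave Eif4e 0.38 and Gspt1 0.029 in cancer against normal, and 1 ribosomal protein lower and Eif4a1 -0.16 in OP against other cancers.

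In single rat groups, cancer against normal gave ribosomal proteins lower 5 (OP), 13 (OR) and 13 (LC) and higher 5 (OR) and 7 (LC), translation factors higher 13, 15 and 13 and lower 0, 0 and 2, and medians of -0.20 and 0.71 (OR). Gspt1 was 0.15 (OP), Eif3a -0.033, Eif4e 0.12 and Eef1a2 -0.23 (OR), and Rplp0 -0.095 and Eif6 -0.024 (LC). With the slide as a block 12 ribosomal proteins and 0 factors were lower and Eif6 was -0.13; with the scan day 0 factors were lower and Eif6 was -0.10. Scan day 2 alone gave 6 ribosomal proteins higher and 10 lower, 14 factors higher and 0 lower, and Eif6 -0.10. Within slides the ribosomal protein median was 0.19 (1) and 0.23 (2) and the factor median 0.32 (3). In OP against other cancers the slide block gave a ribosomal protein median of 0.39, Rps6 -0.067, Rps6kb1 0.14 and Eif4a1 -0.39. Only slide 1 held an OP cancer beside another cancer group, so these values rest on OP cancer 1 against LC cancer 1. The OR and LC cancers of slide 5 enter only through their difference. In the same comparison the slide as a random block, added after seeing the data as were the single scan days, gave 1 lower, Eif4a1 -0.0082 and Eif4e 0.0046. Scan day 1 gave a median of 0.13, 11 higher and Eif4a1 -0.0095. Scan day 2 gave a median of 0.47, 0 lower, Rpl3 0.27, Rps6kb1 0.23, Eif2s1 0.20, Eif4e 0.14, Eef2k -0.20 and, for OR against LC, Rpl10 0.090.

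Samples with the same replicate number were not more alike than others. The mean correlation was -0.05 over 40 same-numbered pairs (5 of them over 0.1) and 0.02 over 122 other pairs. These correlations cannot show whether samples share an animal. With the replicate block, cancer against normal gave 11 ribosomal proteins higher and 17 lower and 22 factors higher and 1 lower, Eif6 -0.0014, and in OP against other cancers Rplp0 0.011, Eif2s1 0.0019 and Eif4a1 -0.16.

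Leaving out 1 array gave, in cancer against normal, 10 to 17 ribosomal proteins higher, 18 to 25 lower, medians of -0.07 to -0.00081 and, for the factors, 19 to 23 higher, 1 lower and medians of 0.48 to 0.55. In OP against other cancers it gave 0 to 15 members called, ribosomal protein medians of 0.19 to 0.31, 23 to 40 higher and 1 to 2 lower at an unadjusted p, and factor medians of -0.16 to -0.09. OP against LC gave 0 to 5 members called, and the other comparisons 0. Values that crossed 0 were Rplp0 in cancer against normal (-0.058 to 0.12) and, in OP against other cancers, Rplp0 (-0.12 to 0.0081), Eif4a1 (-0.057 to 0.10), Eif4e (-0.089 to 0.065) and Eif4ebp1 (-0.037 to 0.17). The number of arrays limits the precision.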
